A study of Homo sapiens with 6 samples.

Results

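The polo-like kinases are a family of serine/threonine kinases that dock onto their substrates through C-terminal polo boxes and act on the cell cycle, the centrosome and the response to stress. *PLK1* is the mitotic kinase of the family, needed for mitotic entry, spindle assembly and cytokinesis, and *PLK4* starts centriole duplication. *PLK2* and *PLK3* are short-lived, inducible members whose genes respond to serum, growth factors and stress. Here *PLK1*, *PLK2*, *PLK3* and *PLK4* were followed, 4 of the 17471 genes listed. *PLK2* was chosen by its measured values in the comparison described below, so its levels are given as a description and carry no test, and the other 3 genes were added by family name and were tested. All 4 passed the filter on low values. *PLK5*, the remaining family member, had at most 2 reads in any library and is not considered further.

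The cells were AN3CA, an established human endometrial cancer line that expresses *PAX2*, a developmental transcription factor. RNA-seq was carried out on 3 libraries of cells carrying the empty hairpin vector (shEV, labelled WT) and 3 of cells in which a short hairpin RNA targets *PAX2* (shPAX2, labelled PAX2 KD). Both constructs were delivered by lentivirus, and both sets of cells were selected with puromycin. A single hairpin was used, so an effect of *PAX2* loss and an effect of that hairpin on other RNAs cannot be told apart. The study's text elsewhere names a scrambled control for this line. No label says that libraries came from separate cultures, so p-values measure only the spread between these libraries.

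Values were TPM, reads scaled by gene length and library total, which allows levels of different genes to be compared. Whole reads recovered from these values ran from 10730909 to 18221859 in shEV and from 19422615 to 29405787 in shPAX2, so depth and group cannot be told apart. The targeted gene, *PAX2*, averaged 3.47 ± 0.665 TPM over shEV against 0.936 ± 0.224 TPM over shPAX2 (SD, n = 3 a group), with a log2 fold change of -1.47 (SE 0.18, limma with Benjamini-Hochberg adjustment, adjusted p = 0.000294). The labels call the cells epithelial, yet of 11 epithelial markers listed only *KRT18* passed the filter and 5 had at most 3 reads in every library, and *CDH1* and *EPCAM* stayed below 0.3 TPM on average in both groups. The epithelial list summed to 11.2 to 13.3 TPM in shEV libraries and 12.5 to 18.2 TPM in shPAX2 libraries, nearly all of it *KRT18*. Of 9 mesenchymal markers listed 5 passed the filter and 2 had at most 3 reads in every library, and *CDH2* and *ZEB2* stayed below 0.3 TPM on average in both groups. That list summed to 4167 to 4549 TPM in shEV libraries and 4077 to 4197 TPM in shPAX2 libraries. Most of it was *VIM*, at 4212 ± 184 and 3808 ± 59.0 TPM (SD, n = 3 a group). Of its 5 tested genes 1 was called (20%, against 42.8% of all genes tested), *COL3A1*, at 35.1 ± 8.25 and 242 ± 6.14 TPM. Of 3 immune markers listed only *CD68* passed the filter, at 1.19 TPM in shEV and 2.02 TPM in shPAX2 on average. It was called higher, as 12.2% of all genes tested were, with a log2 fold change of 0.59 (limma adjusted p = 0.0359). The 2 endothelial markers listed had at most 3 reads in every library. The part of these markers in the kinase levels was not tested. Of 13163 genes tested, 42.8% passed an adjusted p of 0.05 in limma, 12.2% higher and 30.5% lower in shPAX2, and with a log2 fold change of at least 1 in size as well, 1.43% were higher and 3.11% lower. The shEV and shPAX2 ranges stayed apart in 54.9% of genes tested, which is the background for each group of values said below not to overlap. The median log2 fold change of all genes tested was -0.10, and median-of-ratios scaling, which sets the typical gene to no change, moved it to -0.00018. Calls toward lower levels were 71.4% of all calls with TPM as deposited, 48.5% under that scaling and 51.3% under quantile normalization. Under median-of-ratios scaling 2786 of the 13163 genes were called higher and 2626 lower, the background for each list count under it below.

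*PLK2* lies on chromosome 5 (chr5:57749809-57755966, GRCh37, minus strand, 14 exons) and overlaps no other annotated gene. *PLK1* lies on chromosome 16 (chr16:23688977-23701688, plus strand, 10 exons), *PLK3* on chromosome 1 (chr1:45266049-45271662, plus strand, 15 exons) and *PLK4* on chromosome 4 (chr4:128802048-128820379, plus strand, 16 exons). On the other strand *PLK1* overlaps *ERN2* and a long non-coding RNA, and *PLK3* overlaps *DYNLT4*, listed under its older name *TCTEX1D4* with at most 3 reads in any library. A small nuclear RNA pseudogene lies within *PLK4* on the same strand. Whether the counting used strand is not stated, so reads of an overlapping antisense gene could not be separated.

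The 250 bases upstream of the RefSeq start site were read for *PLK2*, whose level differed most between the groups, and for *PLK1*, whose level was similar and whose promoter carries elements of genes switched on before mitosis. Both sequences are from RefSeq (GRCh38.p14) and were placed on GRCh37 by exact match, at chr5:57755914-57756163 on the minus strand and chr16:23689960-23690209 on the plus strand. Capitals mark the TATA box and cyclic AMP response element half-site matches in *PLK2*, and the cell cycle homology and CCAAT box matches in *PLK1*, all described after the sequences.
PLK2: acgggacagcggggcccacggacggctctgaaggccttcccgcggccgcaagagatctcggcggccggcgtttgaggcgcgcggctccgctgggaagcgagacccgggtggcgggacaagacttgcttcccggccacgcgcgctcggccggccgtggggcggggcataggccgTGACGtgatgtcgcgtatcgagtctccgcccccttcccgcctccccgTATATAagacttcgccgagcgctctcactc
PLK1: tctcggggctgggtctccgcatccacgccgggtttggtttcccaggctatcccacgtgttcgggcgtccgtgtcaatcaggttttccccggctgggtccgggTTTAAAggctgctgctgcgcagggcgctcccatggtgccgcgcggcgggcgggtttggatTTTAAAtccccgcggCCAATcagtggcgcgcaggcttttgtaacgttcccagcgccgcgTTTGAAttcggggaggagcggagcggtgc

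Both strands of each window were searched, with positions counted from -1 at the base before the start site. The *PLK2* window held a TATA box match (searched as TATATA or in its other form as TATAAA) from -30 to -25, a match to the cyclic AMP response element half-site TGACG from -77 to -73, and 2 matches to the GC box GGGCGG. Among 35116 RefSeq start sites, 12.8% had a TATA box match, 21.2% a TGACG match and 42.6% a GC box match in a window of the same length. The *PLK1* window held 3 matches to the cell cycle genes homology region (searched as TTTAAA or in its other form as TTTGAA), at -148, -88 and -29, found in 21.9% of start sites, a CCAAT box at -73, found in 32% of them, and 1 GC box. In the *PLK3* and *PLK4* windows the only match was 1 GC box each. No window matched the CArG box of serum response factor (1.16% of start sites) or the paired-domain core GCGTGAC (2.2%). A match is a description of letters, and an absent match says only that these letters are not in this window. G and C made up 71.2% of the *PLK2* window, 64.8% of the *PLK1* window, 70% of the *PLK3* window and 60.8% of the *PLK4* window.

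In control cells *PLK2* was an abundant member of the family, nearly level with *PLK1*, and in shPAX2 cells it stood beside *PLK3* at the low end of the family. The shEV replicates 1 to 3 held 119, 94.7 and 95.1 TPM of *PLK2*, counted from 1819, 2375 and 2437 reads. The shPAX2 replicates 1 to 3 held 0.967, 8.91 and 7.87 TPM, counted from 42, 341 and 218 reads. Every shPAX2 library lay below every shEV library, and the lowest shEV value was 10.6 times the highest shPAX2 value. Mean levels were 103 ± 14.1 TPM for shEV against 5.92 ± 4.32 TPM for shPAX2 (SD, n = 3 a group), a 17.4-fold difference between the means. On the log2(TPM + 0.5) scale the difference was -4.40, the 4th lowest of all genes tested. In shEV libraries 90.4% to 92.5% of listed genes stood below *PLK2*, and in shPAX2 libraries 29.3% to 48.2% did. In bulk RNA, fewer cells that express *PLK2* and less *PLK2* RNA per cell cannot be told apart.

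**Figure D1:**
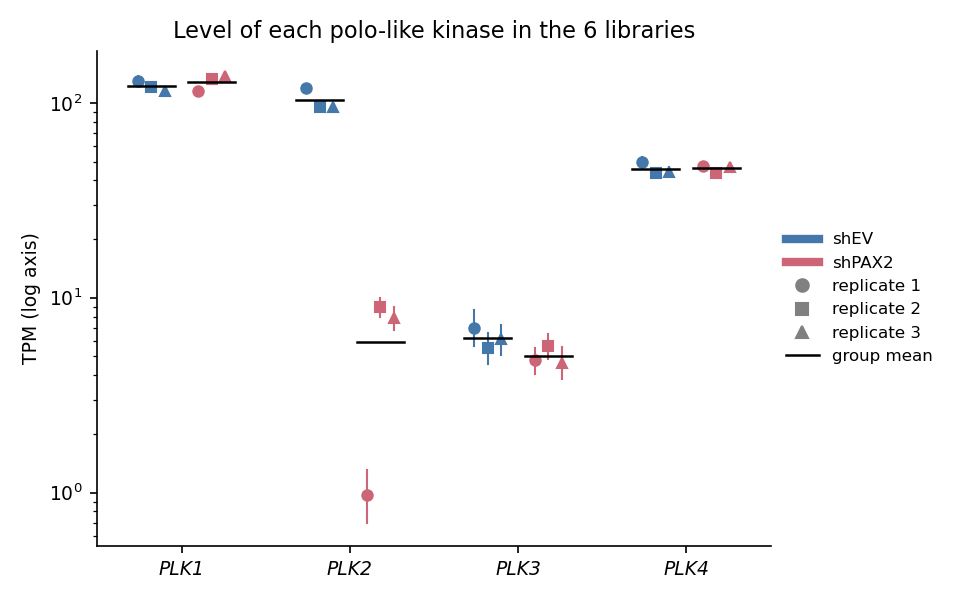
TPM of *PLK1*, *PLK2*, *PLK3* and *PLK4* in each of 3 shEV (blue) and 3 shPAX2 (red) libraries on a log axis, with vertical lines for the exact 95% Poisson interval of the reads (counting error only; hidden by the marker where short) and black bars for group means. *PLK2* lies between 94.7 and 119 TPM in shEV and between 0.967 and 8.91 TPM in shPAX2, with replicate 1 apart from the other shPAX2 libraries, while the groups overlap for the other 3 genes.

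The shPAX2 libraries differed widely among themselves in *PLK2*. Replicate 1 stood at 0.967 TPM, with an exact 95% Poisson interval of 0.697 to 1.31 TPM, well below the interval of 7.99 to 9.91 TPM in replicate 2 and of 6.86 to 8.99 TPM in replicate 3. These intervals cover counting error only. The highest shPAX2 library was 9.22 times the lowest, against 1.26 times in shEV. The SD of the log2 values in shPAX2 was 1.50, larger than that of 99.7% of 2867 genes of a similar level, and 29 of all genes tested had a larger one. The median SD of all genes tested was 0.0944. Among the 410 genes called lower with a log2 fold change of at least 1 in size, the median SD was 0.147 and no gene exceeded *PLK2*. A call favours a small SD, so the 410 genes cannot show how unusual the spread of *PLK2* was. Of those 410 genes, 134 had their lowest shPAX2 value in replicate 1, 114 in replicate 2 and 162 in replicate 3. Their median deviation from the shPAX2 mean was 0.04 in replicate 1, against -1.73 for *PLK2*. A gene with 1 library far from the others is less likely to be called, so these values cannot show whether replicate 1 was unusual. Replicate 1 was the deepest library, and *PAX2* stood there at 0.916 TPM, between the 0.723 TPM of replicate 2 and the 1.17 TPM of replicate 3. Without replicate 1 the shEV mean was 12.3 times the shPAX2 mean and the log2 difference was -3.54. Leaving out any other library gave log2 differences from -4.88 to -4.29.

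*PLK1*, *PLK3* and *PLK4* did not pass the test, and their groups overlapped. The shEV replicates 1 to 3 held 129.9, 120.3 and 115 TPM of *PLK1*, against 115, 132 and 137 TPM in shPAX2 replicates 1 to 3. The lowest shPAX2 library lay within the shEV range and the other shPAX2 libraries lay above it. The means were 122 ± 7.76 TPM and 128 ± 11.4 TPM (SD, n = 3 a group), with a log2 fold change of 0.07 (SE 0.08, 95% interval -0.11 to 0.25, limma adjusted p = 0.508 after Benjamini-Hochberg). *PLK4* stood at 49.5, 43.6 and 44.4 TPM in shEV and at 47.7, 43.7 and 46.8 TPM in shPAX2 replicates 1 to 3. All shPAX2 values lay between the lowest and the highest shEV value. Its log2 fold change was 0.01 (SE 0.07, 95% interval -0.15 to 0.16, limma adjusted p = 0.941), so the interval leaves ratios of shPAX2 to shEV from 0.903 to 1.12.

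*PLK3*, the other stress-inducible member, was the lowest of the 4 genes in shEV. The shEV replicates 1 to 3 held 7.03, 5.52 and 6.10 TPM, counted from 89, 115 and 130 reads, and the shPAX2 replicates 1 to 3 held 4.77, 5.63 and 4.65 TPM, counted from 172, 179 and 107 reads. The highest shPAX2 library lay just above the lowest shEV library, and the other shPAX2 libraries lay below all shEV libraries. The means were 6.22 ± 0.762 TPM and 5.02 ± 0.536 TPM (SD, n = 3 a group), with a log2 fold change of -0.28 (SE 0.12, 95% interval -0.55 to -0.02). The limma p was 0.0396 before and 0.0811 after Benjamini-Hochberg adjustment, and quantile normalization moved the value to -0.05.

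**Figure D2:**
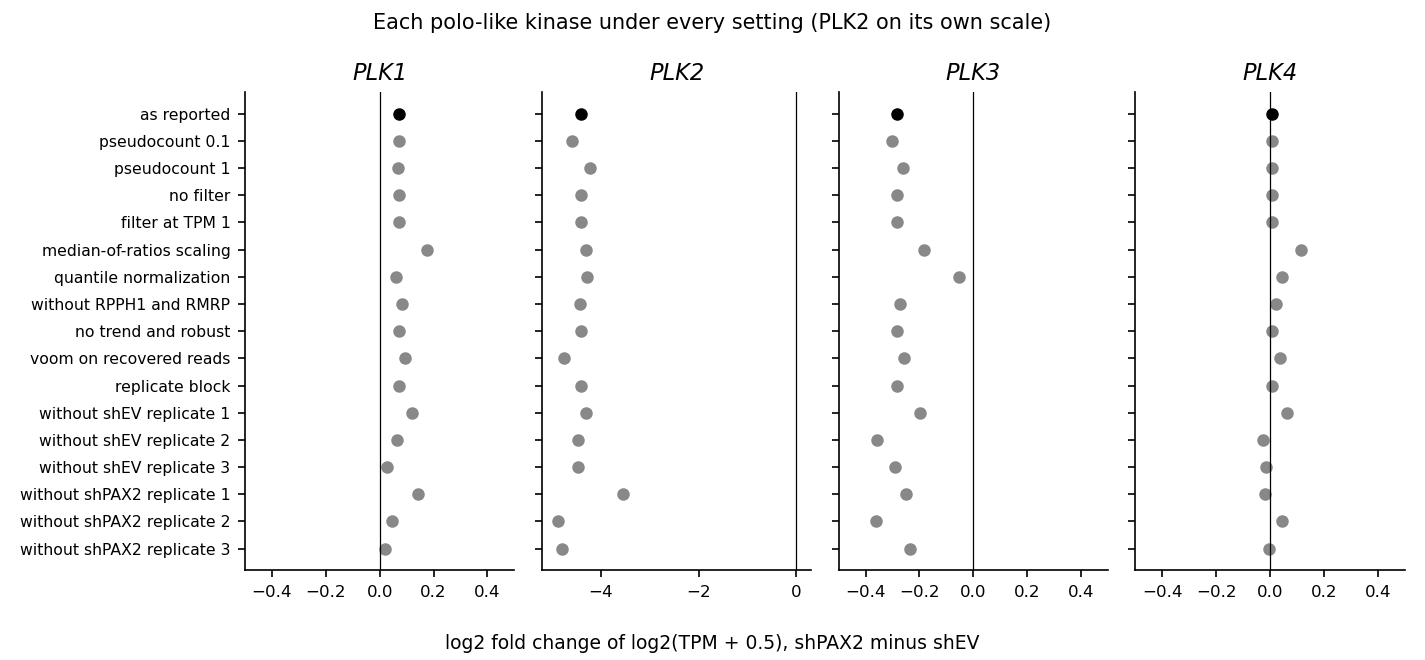
The log2 fold change (shPAX2 minus shEV) of each polo-like kinase as reported (black) and under each other setting (grey), with *PLK2* on its own horizontal scale. *PLK2* stays between -4.88 and -3.54, *PLK1* stays above 0, *PLK3* stays below 0 and *PLK4* lies on either side of 0.

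The make-up of the family differed between the groups through *PLK2*. The 4 genes summed to 305.8, 264 and 260.1 TPM in shEV replicates 1 to 3 and to 168, 190.0 and 196 TPM in shPAX2 replicates 1 to 3. *PLK2* gave 37.2% of that sum over shEV and 3.20% over shPAX2, and *PLK1* 43.9% and 69.2%. The other 3 genes alone summed to 174 ± 11.3 TPM over shEV against 179 ± 10.5 TPM over shPAX2 (SD, n = 3 a group). In shEV the order of mean levels was *PLK1*, *PLK2*, *PLK4* and *PLK3*. *PLK1* and *PLK2* overlapped across shEV libraries, although *PLK2* was below *PLK1* within each, at 0.787 to 0.919 of its level. In shPAX2 the order was *PLK1*, *PLK4*, *PLK2* and *PLK3*, and *PLK2* and *PLK3* overlapped, since *PLK2* was the lower in replicate 1 and the higher in replicates 2 and 3.

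**Figure D3:**
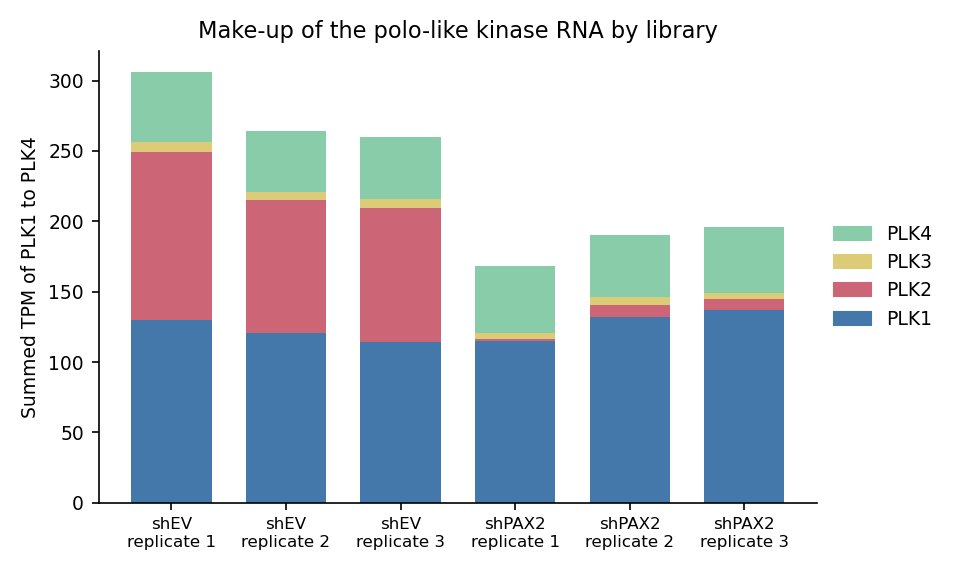
Summed TPM of the 4 polo-like kinases in each library, with stacked colours for the genes. The *PLK2* band takes 35.8% to 39.0% of each shEV bar and 0.574% to 4.69% of each shPAX2 bar, and the *PLK1* and *PLK4* bands keep a similar height.

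Of the genes near *PLK2* on chromosome 5, none was called lower, where 30.5% of all genes were. Neighbours were the nearest 3 listed genes on each side, and 5 of the 6 passed the filter. *GPBP1*, *MIER3* and *SETD9*, more than 1 Mb to the left, had log2 fold changes of 0.05, -0.16 and 0.13, with limma adjusted p of 0.587, 0.0921 and 0.21 after Benjamini-Hochberg. On the right, *GAPT*, 31.3 kb away, had at most 1 read in any library and was not tested, and *MIR548AE2*, 69.9 kb away, had at most 2 reads and a log2 fold change of 0.63 (limma adjusted p = 0.624). Next to them, *RAB3C*, a vesicle-trafficking GTPase 122 kb away that is named for its value, stood at 0.738, 0.785 and 0.11 TPM in shEV and at 5.63, 5.29 and 5.59 TPM in shPAX2 replicates 1 to 3. The groups did not overlap, and the log2 difference of *RAB3C* was 2.60, opposite in direction to *PLK2*, from at most 87 reads in a library. Not all shEV libraries reached 0.5 TPM, so *RAB3C* passed the filter only with its shPAX2 values. Its difference is a description and carries no test. Around *PLK1*, 1 of 5 neighbours tested was called higher, *NDUFAB1* by 0.44, and 1 lower, *TNRC6A* by a log2 fold change of -0.24. Over all genes 12.2% were called higher and 30.5% lower. Around *PLK3*, 1 of 4 neighbours tested was called (42.8% of all genes were), *BTBD19*, lower with a log2 fold change of -0.52 from at most 17 reads in a library. Around *PLK4*, 4 of 5 neighbours tested were called lower (30.5% of all genes were), with log2 fold changes from -0.46 for *INTU* to -0.31 for *LARP1B*, while *PLK4* itself was not called.

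Genes that act with *PLK1* were measured next, among them its activators, its docking partners and its substrates. Of 30 tested, 11 passed (36.7%, against 42.8% of all genes), with 5 higher (16.7%, against 12.2%) and 6 lower (20%, against 30.5%), and none reached a log2 fold change of 1 in size. Their median log2 fold change was -0.03, against -0.10 over all genes, and under median-of-ratios scaling 5 were called higher and 3 lower. The kinase that activates *PLK1*, *AURKA*, and its cofactor *BORA* had log2 fold changes of -0.05 and 0.01, neither of them called, and *AURKA* changed sign under median-of-ratios scaling, to 0.06. *FOXM1*, the mitotic transcription factor that *PLK1* phosphorylates, stood at -0.06, not called, and at 0.05 under that scaling.

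*FBXO5*, an inhibitor of the anaphase-promoting complex whose destruction *PLK1* triggers, stood at 58.1, 46.4 and 49.5 TPM in shEV and at 79.9, 86.2 and 80.4 TPM in shPAX2 replicates 1 to 3. It rose by 0.68 on the log2 scale (SE 0.08, limma adjusted p = 0.000342), with no overlap between the groups. *PKMYT1*, an inhibitory kinase of CDK1, rose from 24.0 ± 2.84 to 39.0 ± 2.49 TPM (SD, n = 3 a group), and *ERCC6L*, a helicase of mitotic DNA bridges, rose by 0.30. *PLK1S1* (now *KIZ*), a centrosomal substrate, fell by 0.56, *INCENP* of the chromosomal passenger complex fell by 0.48 and the cohesin subunit *STAG2* fell by 0.35 on the log2 scale, with limma adjusted p from 0.000199 to 0.00299.

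Among genes that share the timing of *PLK1*, switched on together before mitosis, 30.8% of 26 tested were called, against 42.8% of all genes. Of the 26, 5 were higher (19.2%, against 12.2%) and 3 lower (11.5%, against 30.5%), with a median log2 fold change of 0.03. Under median-of-ratios scaling 11 were called higher and 1 lower, against 2786 higher and 2626 lower of all 13163 genes. The spindle protein *NUSAP1* rose from 166 ± 6.19 to 213 ± 5.51 TPM, the checkpoint kinase *TTK* from 93.8 ± 6.02 to 117 ± 5.55 TPM and the transcription factor *MYBL2* from 196 ± 8.85 to 243 ± 4.22 TPM (SD, n = 3 a group). The kinetochore motor *CENPE* fell by 0.37, the spindle protein *HMMR* by 0.25 and the kinetochore protein *CENPF* by 0.22 on the log2 scale, the last 2 of them no longer called under median-of-ratios scaling (limma adjusted p = 0.0908 and 0.127), and *CENPF* not without shEV replicate 3.

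Centriole duplication genes, the setting in which *PLK4* acts, gave 8 calls of 28 tested (28.6%, against 42.8% of all genes). Of the 28, 3 were higher (10.7%, against 12.2%) and 5 lower (17.9%, against 30.5%). None passed a log2 fold change of 1 in size, and the median was -0.10. Under median-of-ratios scaling 5 were called higher and 2 lower. The direct *PLK4* partner *STIL* had a log2 fold change of 0.02 and its scaffold *CEP152* one of -0.22, neither called. *SASS6*, which builds the centriole cartwheel, fell from 29.2 ± 1.85 to 24.1 ± 0.548 TPM (limma adjusted p = 0.00957), a call lost under median-of-ratios scaling (adjusted p = 0.0537). *CENPJ*, a centriole elongation factor that *PLK2* and *PLK4* are known to phosphorylate, stood at 39.0, 37.7 and 39.2 TPM in shEV and at 28.5, 27.7 and 28.4 TPM in shPAX2 replicates 1 to 3. The groups were well apart, and *CENPJ* fell by 0.45 on the log2 scale (SE 0.05, limma adjusted p = 0.000298). *CEP120* and *CEP135*, which act in centriole elongation, fell by 0.31 and 0.29, and *POC1B*, *RBM14* and *CEP85* rose by 0.31, 0.27 and 0.20. The calls of *CEP135* and *CEP85* were lost without any library other than shEV replicate 2 and shPAX2 replicate 1, and that of *RBM14* without any library other than shPAX2 replicate 1, with limma adjusted p up to 0.204, 0.109 and 0.143 over all settings.

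Of 23 genes reported to bind *PLK2* or *PLK3* or to be their substrates, 21 were tested and 10 passed (47.6%). Of the 21, 3 were higher (14.3%) and 7 lower (33.3%), with a median log2 fold change of -0.13. These shares were near those over all genes, 42.8% called, 12.2% higher and 30.5% lower. Under median-of-ratios scaling 3 were called higher and 6 lower. *CIB1*, a calcium-binding protein that inhibits *PLK3* and binds *PLK2*, stood at 91.9, 88.1 and 76.1 TPM in shEV and at 62.7, 62.9 and 68.9 TPM in shPAX2 replicates 1 to 3. The groups did not overlap, and *CIB1* fell by 0.39 on the log2 scale (SE 0.08, limma adjusted p = 0.0045). *CCNE1*, the S-phase cyclin, fell by 0.52 and the Rap exchange factor *RAPGEF2* by 0.40. *NPM1*, a nucleolar and centrosomal phosphoprotein, rose from 1382 ± 112 to 2071 ± 101 TPM (SD, n = 3 a group), the phosphatase *CDC25A* rose by 0.33 and the transcription factor *JUN* by 0.46. Leaving out shEV replicate 2 or shPAX2 replicate 2 ended the calls of *CDC25A* and *JUN*, as leaving out shEV replicate 3 or shPAX2 replicate 3 did for *JUN*, with limma adjusted p up to 0.0558 and 0.0952. *SIPA1L1*, a synaptic *PLK2* substrate, had a log2 fold change of -0.27 with a limma adjusted p of 0.0822.

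The ubiquitin ligase parts that degrade polo-like kinases, and enzymes that oppose them, gave 9 calls of 17 tested (52.9%, against 42.8% of all genes). Their median log2 fold change was -0.03, against -0.10 over all genes. Of the 17, 1 was called higher (5.88%, against 12.2%) and 8 lower (47.1%, against 30.5%). That split rested on the scaling, since 4 were called higher and 3 lower under median-of-ratios scaling. The deubiquitinase *USP28* fell from 58.6 ± 3.78 to 39.5 ± 2.16 TPM (SD, n = 3 a group), and the F-box protein *FBXW7* and the anaphase-promoting complex subunit *ANAPC2* fell by 0.40 and 0.39 on the log2 scale. *UBE2S*, the chain-elongating enzyme of that complex, rose by 0.29 (SE 0.09, limma adjusted p = 0.029), a call lost without shEV replicate 3, shPAX2 replicate 2 or shPAX2 replicate 3, under quantile normalization, with no filter and without trend and robust priors (adjusted p from 0.0537 to 0.105). That of *ANAPC2* was lost without shEV replicate 2 or shPAX2 replicate 3 and under both other scalings (limma adjusted p up to 0.189).

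Genes that serum raises within the hour, as it does *PLK2* and *PLK3*, were called in 19 of 28 tested (67.9%, against 42.8% of all genes). Of the 28, 4 were higher (14.3%, against 12.2%) and 15 lower (53.6%, against 30.5%), with 4 lower by a log2 fold change of at least 1 (14.3%, against 3.11%). The median was -0.30. Under median-of-ratios scaling 4 were called higher and 9 lower, 2 of them by at least 1. *EGR1*, an immediate early transcription factor, stood at 36.6, 34.5 and 41.7 TPM in shEV and at 12.8, 14.0 and 14.1 TPM in shPAX2 replicates 1 to 3. It fell by 1.43 on the log2 scale (SE 0.08, limma adjusted p = 5.05e-06), with no overlap. *FOS* stood at 43.6, 22.5 and 29.7 TPM in shEV and at 7.18, 11.3 and 10.7 TPM in shPAX2 replicates 1 to 3.

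*FOS* fell by 1.64 on the log2 scale (SE 0.31, limma adjusted p = 0.012). With the replicate number added to the fit, *FOS* was not called (limma adjusted p = 0.0686). *TRIB1*, a pseudokinase, and *JUNB*, an AP-1 subunit named because it completed the 4, each fell by 1.01 on the log2 scale. Not all genes of the group were lower. *SRF*, the transcription factor that drives many early genes, stood at 16.4, 13.8 and 13.7 TPM in shEV and at 20.7, 24.9 and 24.6 TPM in shPAX2 replicates 1 to 3. It rose by 0.66 (SE 0.10, limma adjusted p = 0.000858), and *KLF6* and *JUN* rose by 0.43 and 0.46.

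**Figure D4:**
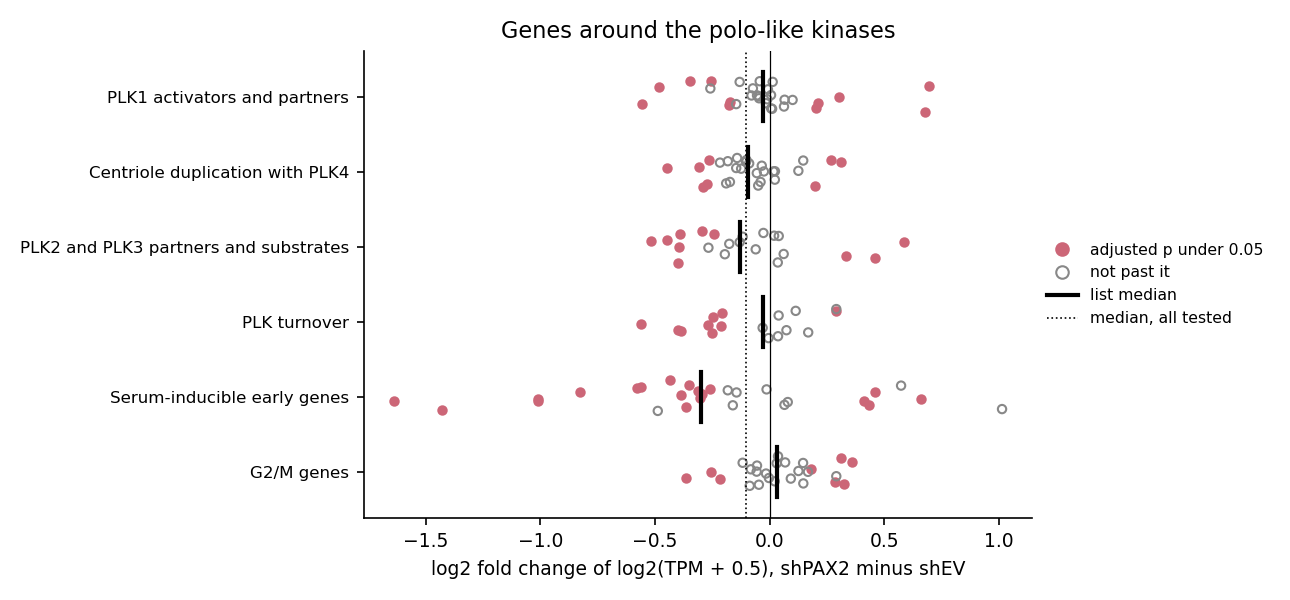
The log2 fold change (shPAX2 minus shEV) of every tested gene in 6 lists of genes around the polo-like kinases, red where the limma adjusted p was under 0.05, with a black bar at each list's median and a dotted line at the median of all genes tested (-0.10). Among the 6 lists shown, 4 serum-inducible early genes lie below -1.

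The genes whose levels most resembled *PLK2* were then found by the Pearson correlation of log2(TPM + 0.5) with it, among 10527 tested genes with a mean of at least 5 TPM. Over the 6 libraries these were *SYDE2* (r = 0.999), *ARHGAP29* (0.998), *ARHGAP10* (0.998), *PSMA2* (0.997) and *HMGXB3* (0.996). All 5 were lower in shPAX2 without overlap, as a high r with a gene whose groups lie far apart brings with it. The points share their library and its depth. *ARHGAP29* stood at 15.8, 14.7 and 14.0 TPM in shEV and at 2.48, 6.25 and 5.60 TPM in shPAX2 replicates 1 to 3. *SYDE2* stood at 8.42, 8.02 and 7.99 TPM in shEV and at 1.47, 3.09 and 3.09 TPM in shPAX2 replicates 1 to 3.

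Both genes had their lowest value in shPAX2 replicate 1, as *PLK2* did, at smaller size. A high r with *PLK2* favours such a match, so it is no separate result. *ARHGAP29* fell by 1.62 and *SYDE2* by 1.56 on the log2 scale. Each was picked by likeness to *PLK2*, itself chosen on this contrast, so these values are descriptions and carry no test. By the deviations from the group means, which leave the group difference out, the nearest genes were *MMACHC*, *CHST3*, *POLR3B*, *DCTN1* and *RAB35*, with r of at least 0.998. In each of these 5 shPAX2 replicate 1 was the lowest shPAX2 library, so the likeness rests on that library. *CHST3* stood at 30.5, 39.2 and 38.6 TPM in shPAX2 replicates 1 to 3, a far smaller spread than that of *PLK2*. Within the family, r with *PLK2* over the 6 libraries was 0.79 for *PLK3*, -0.04 for *PLK1* and -0.16 for *PLK4*, which placed *PLK3* at rank 2855 among those genes.

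**Figure D5:**
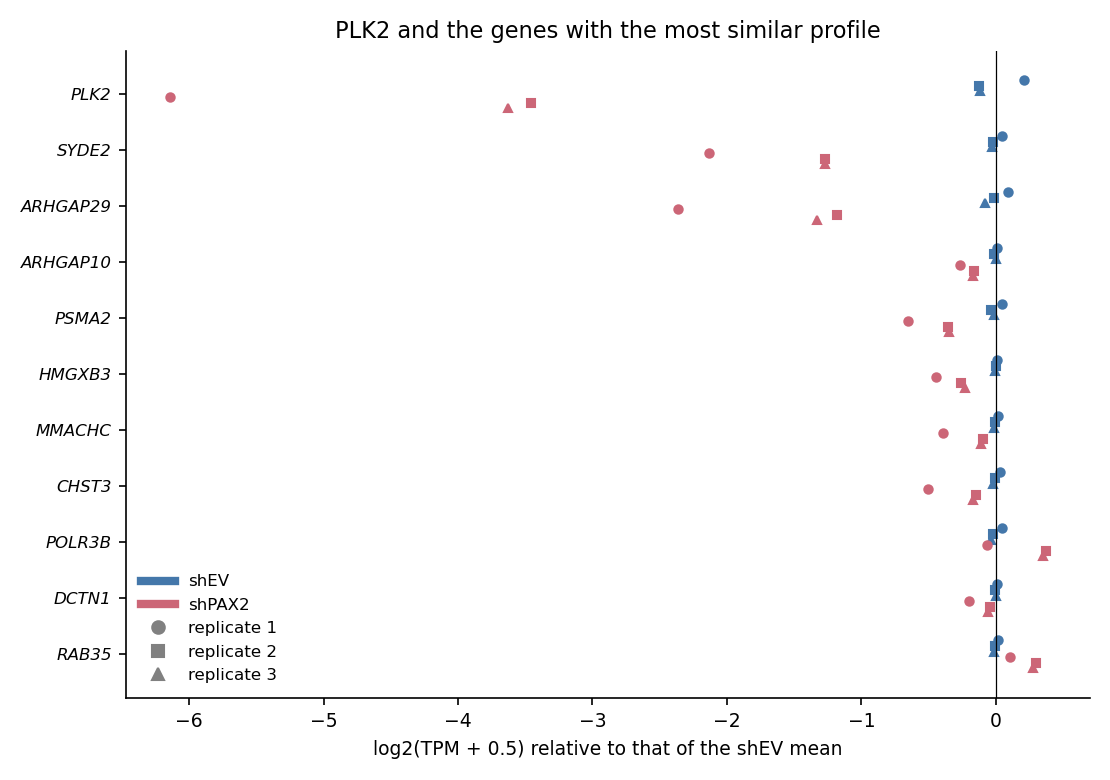
Level of *PLK2* and of the 10 genes nearest to it, 5 by correlation over the 6 libraries and 5 by deviations from the group means, as log2(TPM + 0.5) relative to the shEV mean, with a symbol per replicate number. In every gene shown shPAX2 replicate 1 (red circle) is the lowest shPAX2 library, as choosing genes by likeness to *PLK2* favours. *PLK2* lies furthest below its shEV mean.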

How the data were processed

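The authors deposited TPM values for 17471 genes in 6 AN3CA libraries, prepared from total RNA with a stranded kit. The submitters' processing notes name bcl2fastq, STAR, Subread, featureCounts, edgeR and the hg19 build, without versions or roles. How reads were counted by strand is not given in the sources used here. Within each gene, ratios of TPM between libraries were ratios of whole numbers (largest relative deviation 7.19e-14), which returned the whole reads behind each value and the library totals, checked on simulated reads. Reads carry no molecular identifiers.

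Genes with at least 0.5 TPM in at least 3 libraries were tested with limma 3.58.1 (R 4.3.3; lmFit followed by eBayes allowing a trend and robust priors) after the transform log2(TPM + 0.5), comparing 3 shPAX2 with 3 shEV libraries, two-sided, with Benjamini-Hochberg adjustment over all 13163 genes. Differences are on that scale, which understates those of low genes, and because TPM has a fixed sum, abundant genes that change shift every other value. On simulated data the share of unchanged genes among the calls was above the nominal rate.

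*PLK2* was selected on its value in this contrast and was not tested. The members and gene lists were chosen with earlier results of these data known. Genes were named by a fixed rule, the 3 highest and 3 lowest called genes of each list with a mean of at least 1 TPM, a set of partners, and the 5 nearest to *PLK2* by each correlation. Positions came from GENCODE (GRCh37) for the 94.8% of symbols that could be matched. Other pseudocounts, filters, scalings, voom on the recovered reads, a replicate block and leaving out each library were tried. A gene list and some of the fixed genes are not reported here.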

Additional observations from a re-analysis of the deposited data

How the results depend on the processing

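*PLK2* stayed lower in shPAX2 under all 16 alternatives (log2 difference -4.88 to -3.54), and *PLK1* and *PLK3* kept their direction and were not called under any of them. *PLK4*, close to no difference, ran from -0.027 to 0.063 when 1 library was left out. Median-of-ratios scaling turned *AURKA* to 0.059, *FOXM1* to 0.051 and *DCTN1* to 0.0077. With 1 library left out, *AURKA* ran from -0.078 to 0.00063, *BORA* from -0.0027 to 0.044 and *STIL* from -0.0034 to 0.071. Of all genes, 3358 were called at an adjusted p of 0.01 in place of 5629. The calls among *PLK1* partners numbered 7 without trend and robust and 7 to 12 with 1 library left out (7 without shEV replicate 3 or shPAX2 replicate 2). Those among centriole genes numbered 5 with no filter, 4 without trend and robust and 4 to 11 with 1 library left out, those among turnover genes 5 under quantile normalization and 5 to 9 with 1 library left out (5 without shPAX2 replicate 2), and those among early genes 11 to 19 with 1 library left out (11 without shEV replicate 3, 12 without shPAX2 replicate 2). The calls over all genes moved too, from 5629 of 13163 to 4290 of 12922 without shEV replicate 3 and 3842 of 13014 without shPAX2 replicate 2. They were 5658 of 13017 without shPAX2 replicate 1. With all libraries they were 5328 of 17471 with no filter, 5218 of 13163 without trend and robust and 4856 of 13163 under quantile normalization. The cause of these shifts was not tested, beyond the smaller number of libraries. Correlations of same-numbered libraries' deviations were -0.05, 0.08 and 0.0014, so no shift shared by replicate number was seen. These values cannot show whether same-numbered libraries were prepared together. A fit with the replicate block called 5112 genes. Among genes tested and named here, it did not call *FOS*, *JUN* or *CEP85* (limma adjusted p from 0.0509 to 0.0735), while it called *CEP152* (0.0375). *PLK3* was counted from 89 to 179 reads per library and *PLK2* from 42 in shPAX2 replicate 1.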

Other observations

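*PLK1* had its own nearest genes over the 6 libraries, named here after their values were seen. They were *KIF20A* (r = 0.989), *SERPINB8* (0.984), *PNP* (0.983), *CIRH1A* (0.983) and *CCNB1* (0.982), among 10527 genes with a mean of at least 5 TPM. *KIF20A* is a mitotic kinesin that docks *PLK1* at the central spindle, and *CCNB1* is the mitotic cyclin. By deviations from the group means the nearest were *UBR4*, *MTCH1*, *PRR14L*, *LAMTOR1* and *LSM1*, with r of at least 0.995. Neither *KIF20A* nor *CCNB1* was called, at 155 ± 11.2 and 162 ± 16.3 TPM for *KIF20A* and 490.2 ± 23.5 and 514 ± 48.2 TPM for *CCNB1* in shEV and shPAX2 (SD, n = 3 a group). Over the 6 libraries the correlation of *PLK1* with *PLK4* was 0.19. These are descriptions over 6 libraries that share their totals.

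*CYR61*, a serum-inducible gene that encodes a secreted matrix protein, had a higher mean in shPAX2. It stood at 12.5 ± 3.92 TPM over shEV against 26.5 ± 10.0 TPM over shPAX2 (SD, n = 3 a group), with a limma adjusted p of 0.111 after Benjamini-Hochberg, so it was not called.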
